A study of Arabidopsis thaliana with 12 samples.

Results

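B-box (BBX) proteins are plant zinc-finger regulators, and several of those numbered BBX20 to BBX32 act in photomorphogenesis, the change of a seedling from growth in the dark to growth in light. As background, several of them meet HY5, a bZIP factor that activates light-induced genes, and COP1, an E3 ligase that works with SPA proteins and marks light-growth factors for destruction in darkness. BBX20, BBX21 and BBX22 carry a tandem pair of B-boxes and promote photomorphogenesis, BBX24 and BBX25 have the same layout and hold it back, and BBX28 to BBX32 carry a single B-box. The binding of SOB3 to 10 of these loci was described: BBX20, BBX21, BBX22, BBX24, BBX25, BBX28, BBX29, BBX30, BBX31 and BBX32, which are 10 of 27444 protein-coding nuclear genes. A peak was assigned to a gene where it overlapped the gene body, the 2000 bp upstream or the 1000 bp downstream of it.

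SOB3 is an AT-hook protein of the AHL family, whose members bind AT-rich DNA and repress hypocotyl growth. The seedlings were Arabidopsis thaliana Col-0 carrying ProSOB3::SOB3-GFP, a fusion driven by the SOB3 promoter, in the sob3-4 mutant, so every sample shared this background, and they were grown in short days (SD) of 8 h light and 16 h dark. Seedlings were harvested 4 h after dawn (ZT4) and 9 h after dawn (ZT9, in the dark) at an age of 5 days, and at the following dawn (ZT24) at 6 days, with 3 ChIP replicates per time point and 1 input each. The 9 ChIP samples each had their own list of peaks, and the 3 inputs and any seedlings without GFP were not analysed here, so binding of the antibody to chromatin without the fusion was not tested.

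The lists held 20988 to 24850 peaks, with a median width of 337 to 390 bp and a median fold enrichment of 2.55 to 2.90. Fold enrichment is the pileup of ChIP fragments at the summit over the local background, after 1 is added to each. Since it depends on depth and on the input, each peak is given as its percentile in its own list, where 100 is the most enriched peak. The total of mapped reads of each list is unknown here, and the lowest background of a list, which moves with its depth, ranged from 12.1 to 15.8 fragments. Since the chromatin came from many cell types at once, binding in fewer cells and weaker binding per cell cannot be told apart in any of these values. Overlapping peaks of the 9 lists were merged into 28285 nuclear sites, of which 13251 (46.8%) were present in all 9 lists.

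All 10 genes had a peak in every one of the 9 lists, so all 10 were bound by SOB3, in at least 2 of 3 replicates, at every time point. In the background of all protein-coding genes, 52.4% had a peak in all 9 lists, and 61.3% were bound at all 3 time points (ZT4 68.1%, ZT9 66.3%, ZT24 68.3%). The 10 windows held 23 to 30 peaks per list, 231 peaks in total, which merged into 25 sites. Of these sites, 17 were present in all 9 lists and the other 8 in 1 to 8 lists. The median best peak of the 10 genes lay at percentile 90.6, compared with 71.1 over all 14388 genes with a peak in every list. The median window was 4581.5 bp for the 10 genes and 5078.0 bp for all genes. The 10 genes had a median of 2.56 peaks per list in their windows, and the 14388 genes 2.0. A best peak taken from more peaks can be higher, and the part of these counts in the percentiles was not tested.

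The other 22 B-box genes, most of them CONSTANS-like, were bound at all 3 time points in 18 cases and had a peak in every list in 14 cases. BBX23 and BBX26 had no peak in any list. The median best peak of the 14 was at percentile 72.8, with BBX7 (COL9, 96.8) and BBX6 (COL5, 89.7) highest and BBX13 (31.2) and BBX18 (47.2) lowest among them. The 14 include BBX9, whose best peak (77.6) is also that of its neighbour BBX30, so the 2 lists share a site. HY5, its homolog HYH, COP1 and SPA1 to SPA4 were all bound at all 3 time points, but only 4 of these 7 genes had a peak in all 9 lists. SPA1 (96.4) and SPA3 (94.1) reached the levels of the strongest B-box genes, SPA4 averaged 78.9 and HYH 60.4. HY5 and SPA2 had a peak in 8 lists and COP1 in 7. The windows of these 7 genes were longer, with a median of 7011.0 bp.

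By the mean percentile of the best peak over 9 lists, the order was BBX28 (98.6 ± 0.69, SD), BBX20 (98.5 ± 1.27), BBX21 (97.7 ± 0.54), BBX31 (95.7 ± 3.28), BBX22 (94.3 ± 1.26), BBX24 (87.0 ± 5.76), BBX29 (84.5 ± 3.00), BBX30 (77.6 ± 11.4), BBX25 (70.3 ± 9.69) and BBX32 (51.5 ± 16.4). Among the 9 neighbouring pairs in this order, only BBX22 and BBX24 differed by more than the SD of their difference within lists (7.32 ± 6.33 percentile points, with BBX22 higher in 9 of 9 lists). The other 8 neighbours could not be separated in this way. The 5 genes above this step held all 3 activators, BBX20, BBX21 and BBX22, together with BBX28 and BBX31, a placement that was not tested. The place of BBX31 rested on a distal peak: with a window of 1000 bp upstream and 500 bp downstream its mean fell to percentile 52.5. The best peaks of BBX20 also belonged to a distal site. Its median summit lay 1764 bp upstream and nearer to the start of the neighbour AT4G39080 (951 bp).

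**Figure D1:**
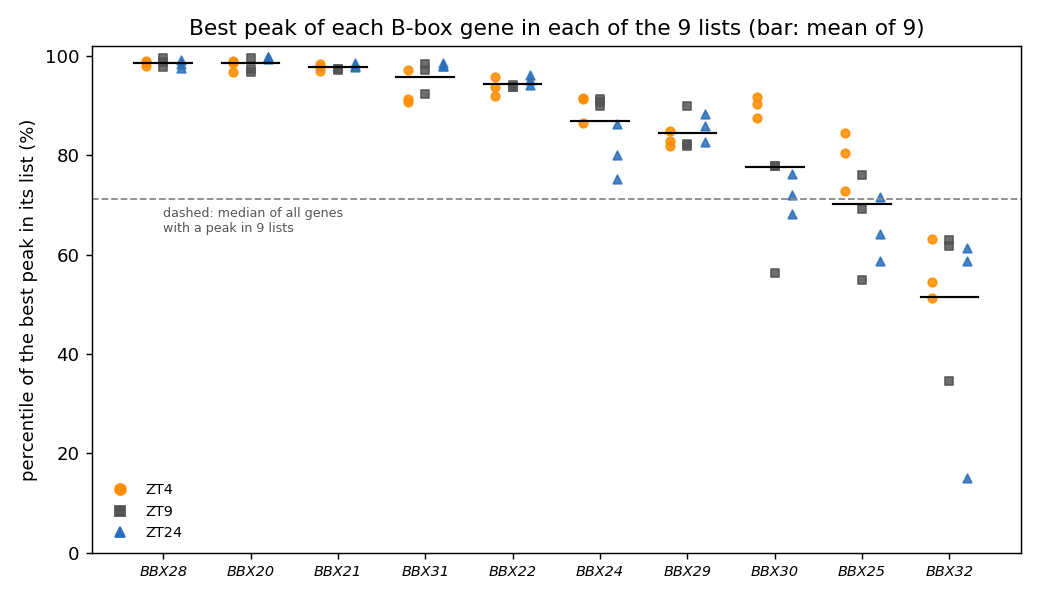
Percentile of the best peak of each B-box gene (y axis, percent) in each of the 9 lists, with genes on the x axis in the order of their means. Points are replicates at ZT4, ZT9 and ZT24, black bars are means of 9 lists, and the dashed line is the median of all genes with a peak in every list (71.1). BBX28, BBX20 and BBX21 stayed above percentile 96 in every list, while BBX32 ranged from 15.1 to 63.1.

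The summits fell into distinct positions around the genes. Of the 17 sites present in all lists, 6 had their summit within 150 bp of the transcription start, 6 lay further upstream, 4 lay downstream of the gene and 1 lay in an intron. The upstream sites had a median percentile of 95.6 (77.6 to 98.5), and the sites at the start had a median of 72.2 (51.5 to 94.3). The downstream sites had a median of 88.8 (44.7 to 98.4). These medians describe few sites and were not tested.

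**Figure D2:**
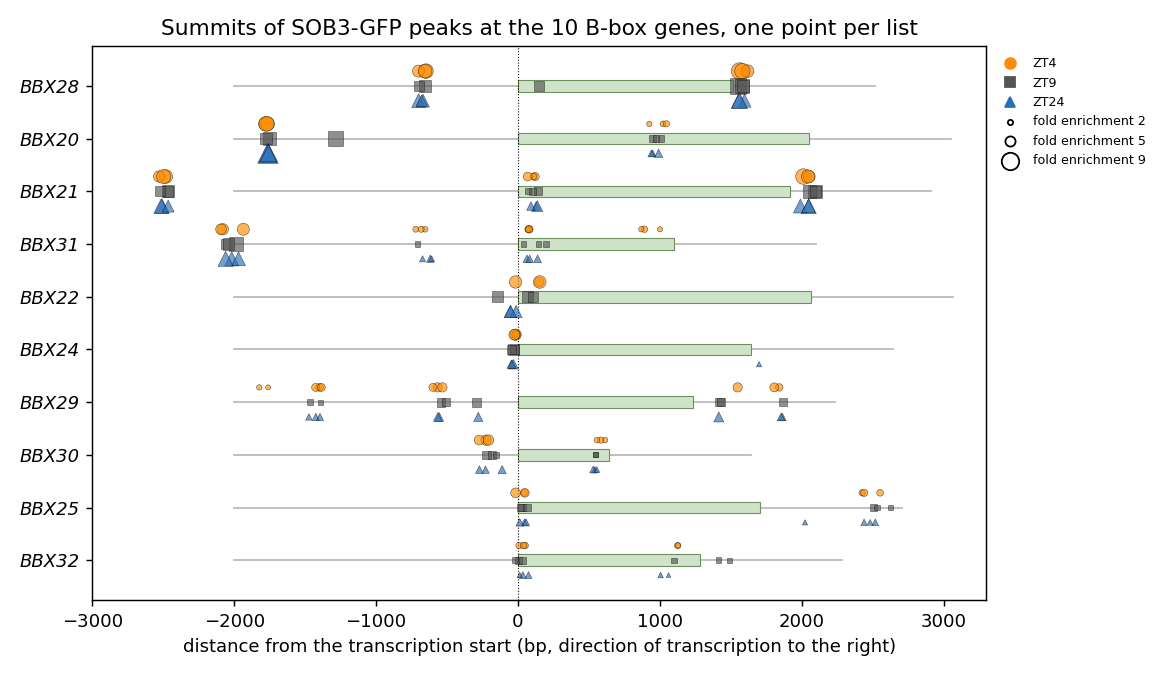
Distance of the summits of merged sites from the transcription start (x axis, bp) for the 10 genes (rows, in order of their best peak), with the gene body as a green bar and the window as a grey line. Each point is the most enriched peak of a merged site in 1 list, coloured by time point and sized by fold enrichment. Weaker peaks merged into the same site, such as those near the start of BBX20, are not drawn. At the 17 sites present in all 9 lists summits recur at every time point, while sites found in few lists, such as BBX31 +892 in ZT4 lists alone, do not. The largest points lie upstream or past the end of BBX20, BBX21, BBX28 and BBX31, where the summits of the far upstream peaks of BBX21 and BBX31 lie outside the window that their peaks overlap.

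BBX20 (AT4G39070, BZS1), which promotes photomorphogenesis and lowers brassinosteroid responses, lies on chromosome 4 at 18204631 to 18206684 on the minus strand. Its main site spanned 3308 bp, reaching from inside the gene to far upstream, and its widest peaks, of 1645 to 3207 bp, had a median of 2464.0 bp, several times the usual peak width. In ZT4 lists the site also held a weaker peak 92, 136 and 134 bp inside the gene, at percentiles 29.9, 32.6 and 47.5. ZT24 replicates 1 and 2 had this start peak at 134 and 79 bp, at percentiles 82.6 and 85.3. In the ZT9 lists and ZT24 replicate 3, a wide peak covered both the start and the upstream summit. How the start peak changed was not tested. The main summit lay 1764 bp upstream of BBX20 but 951 bp from the start of the neighbour AT4G39080 (VHA-A3, a vacuolar proton pump subunit). The site can therefore not be assigned to BBX20 alone. The fold enrichment there was 7.17, 6.98 and 7.78 in ZT4 lists, 6.51, 8.01 and 5.67 in ZT9 lists and 10.3, 9.95 and 8.68 in ZT24 lists. The ZT24 replicates were all above those of the other time points in fold, and in percentile they were 99.9, 99.8 and 99.4, which overlapped with ZT9 replicate 2 at 99.5. The test over time points did not call this site (adjusted p = 0.102, limma's moderated F test on ranks among the 13251 sites, as in all tests here).

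The sequence under this summit is shown because its mean percentile over the 9 lists was the highest of the member sites (98.54), although by little, since the site past the end of BBX28 had 98.44 and was higher in mean at ZT4 and at ZT9. It is the 300 bp window chr4:18208298-18208597 (TAIR10), read on the strand of BBX20, and capitals mark a CACATG word, which belongs to the family of words recognised by PIF factors. On this strand the word reads as its reverse complement.
BBX20 upstream: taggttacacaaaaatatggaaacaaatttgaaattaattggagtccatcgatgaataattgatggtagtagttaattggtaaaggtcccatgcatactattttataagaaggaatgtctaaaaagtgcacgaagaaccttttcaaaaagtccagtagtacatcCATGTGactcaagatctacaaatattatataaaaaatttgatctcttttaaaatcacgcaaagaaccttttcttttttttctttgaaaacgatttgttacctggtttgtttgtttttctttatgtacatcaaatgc
The GC content of this window was 29.3%, and it held 2 matches to the AT-rich motif described further on.

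Inside BBX20, a weaker intronic site 975 bp from the start had percentiles of 27.4, 22.3 and 46.5 in ZT4 lists, 50.8, 62.9 and 59.0 in ZT9 lists and 54.4, 61.6 and 79.9 in ZT24 lists. Its ZT4 replicates were all below the ZT9 and ZT24 replicates. The change was not called (adjusted p = 0.07), and by the pileup of ChIP fragments alone, 43, 42 and 39 in ZT4 lists, 48, 57 and 58 in ZT9 lists and 58, 64 and 72 in ZT24 lists, the adjusted p was 0.179.

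BBX21 (AT1G75540, chromosome 1, 28365824 to 28367738, plus strand), an activator that binds the HY5 promoter, had 3 sites in every list, which framed the gene. The upstream site had its summit 2497 bp before the start, outside the window, although its peaks reached into it, and no other start was nearer. Its fold enrichment averaged 6.58 ± 0.84 in ZT4 lists, 5.37 ± 0.65 in ZT9 lists and 6.99 ± 0.82 in ZT24 lists (SD, n = 3 each). The downstream site lay 136 bp past the gene end and averaged percentile 97.4 in ZT4 lists, 97.3 in ZT9 lists and 97.9 in ZT24 lists. Between them, a site in the 5′ UTR, 111 bp from the start, was weaker and averaged percentile 73.3 in ZT4 lists, 65.0 in ZT9 lists and 84.6 in ZT24 lists. None of the 3 was called (adjusted p of 0.312, 0.837 and 0.134, in the order given).

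The upstream window of BBX21 (chr1:28363177-28363476, plus strand) is shown for its TCP-like words. These read GGNCCA on either strand, with any base but G in the place of N, resemble the core recognised by TCP factors, and are in capitals.
BBX21 upstream: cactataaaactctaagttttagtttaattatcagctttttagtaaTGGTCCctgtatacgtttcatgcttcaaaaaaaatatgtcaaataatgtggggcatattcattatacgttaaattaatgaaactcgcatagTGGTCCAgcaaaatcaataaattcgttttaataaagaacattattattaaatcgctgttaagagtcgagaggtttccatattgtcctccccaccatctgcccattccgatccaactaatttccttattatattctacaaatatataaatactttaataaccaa
It held 3 such matches, of which 2 overlapped.

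BBX22 (AT1G78600, LZF1, chromosome 1, 29566863 to 29568931, plus strand), a cofactor of HY5 that is destroyed through COP1 in darkness, had exactly 1 peak in each list. The site covered the start, with a median summit 13 bp upstream and single summits from 146 bp upstream to 154 bp downstream. The percentiles were 93.8, 91.9 and 95.8 in ZT4 lists, 93.7, 94.2 and 93.8 in ZT9 lists and 94.1, 95.1 and 96.1 in ZT24 lists. They overlapped between time points and spanned 4.2 percentile points in all. No change was called (adjusted p = 0.849), and the ChIP pileup averaged 136 in ZT4 lists, 125 in ZT9 lists and 126 in ZT24 lists.

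The repressors BBX24 and BBX25 were bound mainly at their starts. BBX24 (AT1G06040, STO, chromosome 1, 1828340 to 1829983, minus strand) had a site 30 bp upstream of its start in all lists, with percentiles of 91.3, 86.5 and 91.4 in ZT4 lists, 90.7, 89.9 and 91.2 in ZT9 lists and 86.4, 75.2 and 80.0 in ZT24 lists. All 3 ZT24 replicates were below all others in percentile, but the change was not called (adjusted p = 0.136). The ChIP pileup there was 109 in ZT4 lists, 111 in ZT9 lists and 109 in ZT24 lists on average, while the local background was 21.8, 22.9 and 17.7 fragments in ZT4 lists, 20.4, 23.8 and 23.3 in ZT9 lists and 26.8, 26.7 and 21.7 in ZT24 lists. A further small peak past the end of BBX24 was found in 1 list. BBX25 (AT2G31380, STH, chromosome 2, 13381767 to 13383470, plus strand) had a site 46 bp inside the gene, in the 5′ UTR, with a mean percentile of 79.3 ± 5.93 in ZT4 lists, 66.4 ± 11.2 in ZT9 lists and 64.9 ± 6.48 in ZT24 lists (SD, n = 3 each, adjusted p = 0.275). Its second site, 803 bp past the gene end, lay in an intron of AT2G31390 and averaged percentile 44.7 over the 9 lists (adjusted p = 0.2). One more peak downstream of BBX25 was found in 1 list.

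BBX28 and BBX29 each have a single B-box, and BBX28 is known to interact with HY5 and to reduce its activity. BBX28 (AT4G27310, chromosome 4, 13675537 to 13677055, plus strand) had the highest mean of the group. Its downstream site, with a summit 59 bp past the gene end, had percentiles of 99.0, 97.9 and 98.8 in ZT4 lists, 99.6, 98.8 and 97.8 in ZT9 lists and 96.5, 98.4 and 99.2 in ZT24 lists, which overlapped between time points (adjusted p = 0.779). Its upstream site had a median summit 669 bp before the start and averaged percentile 97.2 ± 0.15 in ZT4 lists, 93.0 ± 2.98 in ZT9 lists and 95.9 ± 1.86 in ZT24 lists (SD, n = 3 each, adjusted p = 0.291). In several lists this site was called as separate peaks. A peak near the start was called in all 3 ZT9 lists, at +103, +150 and +140 bp with percentiles of 93.6, 89.8 and 85.6. ZT4 replicate 2 also had one, at +122 bp (61.8). In the other lists the upstream peak itself reached past the start. Only in ZT9 replicate 2 was the start peak the higher one, with its summit 150 bp inside the gene.

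BBX29 (AT5G54470, chromosome 5, 22114304 to 22115539, minus strand) had 2 sites in all lists, 542 bp upstream of the start and 572 bp past the end. The upstream site averaged percentile 82.5 ± 2.06 in ZT4 lists, 81.1 ± 9.18 in ZT9 lists and 83.3 ± 2.41 in ZT24 lists (SD, n = 3 each), with an adjusted p of 0.988. A more distal site, 1411 bp upstream and nearer to the start of AT5G54480 (1054 bp), had percentiles of 67.7, 82.8 and 72.6 at ZT4, 8.2 and 41.2 in the 2 ZT9 replicates that had it, and 64.6, 62.9 and 51.5 at ZT24. It was absent from the list of ZT9 replicate 3. Both ZT9 values were below all ZT4 and ZT24 values, but a site missing from a list did not enter the test. With ZT9 replicate 3 left out, so that the site could be tested among 13901 sites, it was called (adjusted p = 0.0482), and was lower at ZT9 than at ZT4 by a rank score (a rank turned into a normal deviate) of -1.66 ± 0.37 (SE, adjusted p = 0.0405). That fit called 1087 sites in all and rests on 2 ZT9 replicates, and its choice followed from the list that lacks the peak. A further site, 1791 bp upstream, was found in 2 ZT4 lists only.

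The upstream regions of BBX28 and BBX29 shared an 18 bp run, ccagacaaatcccaggtg. Among the 128 pairs of windows from different genes of the group, the part of this run inside the windows (17 bp) was the longest shared stretch. The run occurred 2 times in the nuclear genome, at these 2 genes. It lay 536 to 519 bp before the start of BBX28 and 505 to 488 bp before that of BBX29. The next lines give it with 20 bp on each side, at chr4:13674981-13675038 for BBX28 and chr5:22116007-22116064 for BBX29, each on the strand of its gene, with TCP-like words and the G-box CACGTG, the word bound by HY5 and PIF factors, in capitals.
BBX28: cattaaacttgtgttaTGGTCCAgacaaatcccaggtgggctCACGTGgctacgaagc
BBX29: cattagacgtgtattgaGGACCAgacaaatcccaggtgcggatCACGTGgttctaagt
In both genes the run began within a TCP-like word and was followed a few bases later by a G-box. The median summits of the binding sites were 669 bp and 542 bp before the starts, on the far side of the run from the start. Some summits lay on its near side. For BBX28 they were at +103, +150 and +140 bp in the 3 ZT9 lists and at +122 bp in ZT4 replicate 2. For BBX29 they were at -290 bp and -279 bp in replicate 3 of ZT9 and of ZT24. A shared stretch is a description of these promoters, and whether SOB3 contacts it was not tested.

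BBX30 and BBX31 encode microproteins, short proteins with a B-box and little else, that bind CONSTANS and delay flowering, and both are known to counteract photomorphogenesis. The 2 calls of the group fell on these genes. Of the 17 sites present in all lists, 2 (11.8%) changed in rank between time points at an adjusted p under 0.05, where 14.6% of all 13251 sites did. An unadjusted p under 0.05 was reached by 6 of the 17 sites and by 4617 of all 13251 sites. By either count of these fold ranks, the share of the B-box sites was close to that of all sites. By the ranks of the pileup alone, without the input, 6 of the 17 sites and 1719 of all 13251 sites had an unadjusted p under 0.05. That share was larger for the B-box sites, which are few, and the difference was not tested. By these ranks 1 of the 17 sites was called, where 30 of 13251 sites (0.226%) were called in all.

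That site lay at the start of BBX31 (AT3G21890, chromosome 3, 7708833 to 7709933, minus strand), at chr3:7709581-7710122 with a median summit 80 bp inside the 5′ UTR. The percentiles were 68.4, 55.6 and 61.5 in ZT4 lists, 20.7, 35.1 and 15.8 in ZT9 lists and 70.4, 69.0 and 72.3 in ZT24 lists. All 3 ZT9 replicates were well below all others, and ZT4 and ZT24 differed less. The ChIP pileup was 71, 60 and 52 fragments in ZT4 lists, 33, 42 and 40 in ZT9 lists and 62, 59 and 51 in ZT24 lists, again with no overlap of ZT9 with the others. The local background averaged 18.7 in ZT4 lists, 17.0 in ZT9 lists and 15.5 in ZT24 lists, so that of ZT9 lay below ZT4 and above ZT24. Its part in the ranks was not tested.

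In limma's test the BBX31 start site had an adjusted p of 0.00839 for any change and 0.0452 for ranks of the pileup. It was lower at ZT9 than at ZT4 by a rank score of -1.12 ± 0.22 (SE, adjusted p = 0.0155) and higher at ZT24 than at ZT9 by 1.43 ± 0.22 (adjusted p = 0.00739). The ZT24 to ZT4 difference of 0.31 ± 0.22 was not called (adjusted p = 0.434). In the background, 4.23% of all sites were lower at ZT9 than at ZT4 and 4.63% higher at ZT24 than at ZT9. No other site of the group passed a test between 2 time points in either direction, where 4.09% of all sites were higher at ZT9 than at ZT4, 4.35% lower at ZT24 than at ZT9, 2.38% higher at ZT24 than at ZT4 and 2.62% lower. The call held without any single replicate, with adjusted p from 0.0131 to 0.0303.

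**Figure D3:**
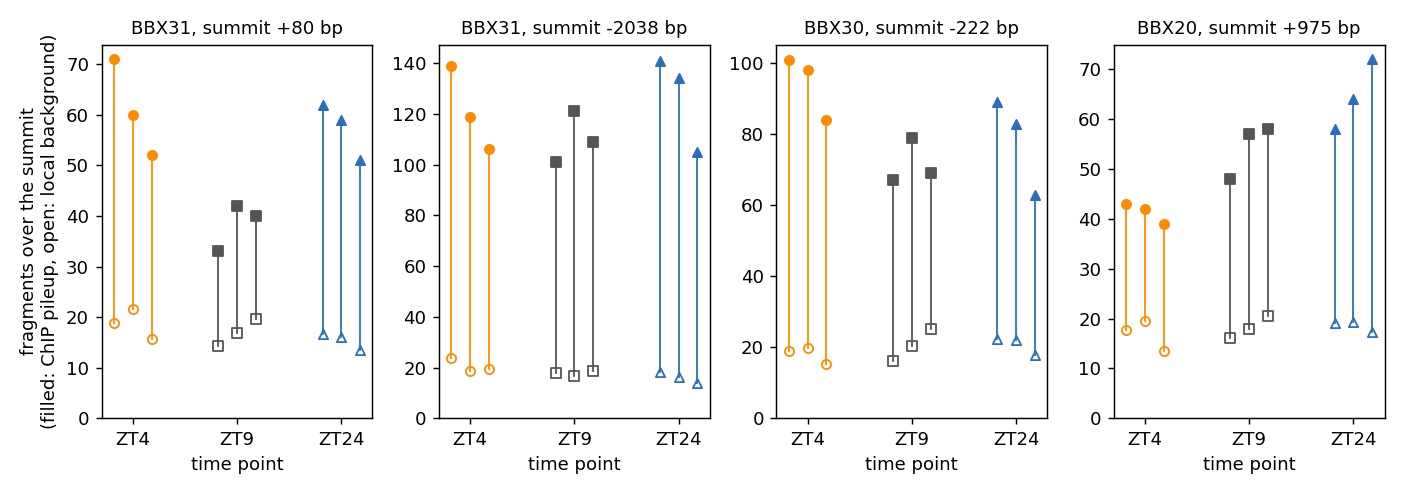
ChIP pileup (filled) and local background (open) at the summit, in fragments (y axis), for each replicate at ZT4, ZT9 and ZT24 (x axis) at 4 sites: the start site of BBX31 (+80 bp), the distal site of BBX31 (-2038 bp), the site upstream of BBX30 (-222 bp) and the intronic site of BBX20 (+975 bp). Values are not scaled for depth. At the start of BBX31 the ZT9 pileup was 33 to 42, against 51 to 71 at the other time points, while the distal site of the same gene stayed between 101 and 141.

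The other 3 sites of BBX31 did not all follow its start site. The distal site, with a summit 2038 bp upstream and thus just outside the window that its peaks overlap, had percentiles of 91.2, 97.1 and 90.8 in ZT4 lists, 92.4, 98.5 and 97.1 in ZT9 lists and 98.0, 98.6 and 98.0 in ZT24 lists, with ZT9 within the range of the others (adjusted p = 0.209). A small site 672 bp upstream was present in all ZT4 and ZT24 lists but in 1 ZT9 list only, where it was at percentile 19.8, with means of 36.6 at ZT4 and 48.2 at ZT24. A site in the 3′ UTR, 892 bp from the start, was present in all 3 ZT4 lists, at percentiles 48.6, 13.6 and 14.9, and in no other list, a pattern found for 84 of all 28285 sites (0.297%, with 0.177% for ZT9 alone and 0.226% for ZT24 alone). This last site also falls in the window of the neighbour BBX10.

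Around the start of BBX31, the 5′ UTR held a G-box 99 to 124 bp from the start with its flanks (chr3:7709809-7709834, minus strand), centred 31 bp from the median summit. It is shown with the G-box of the BBX22 site, which also lies in the 5′ UTR (chr1:29566894-29566919, plus strand), since these and the G-box of BBX29 were the only ones in the 17 summit windows. The bases just before the start of BBX31 that lie in the summit window (chr3:7709934-7710002) are shown with them.
BBX31 5′ UTR: aagattcatcCACGTGtccaacaaca
BBX22 5′ UTR: ttagatttttCACGTGtctatccatt
BBX31 before the start: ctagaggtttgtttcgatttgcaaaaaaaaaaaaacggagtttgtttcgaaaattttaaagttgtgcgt
The G-box of BBX28 that follows the shared run lay outside its window. The stretch before the start of BBX31 held no match to any motif searched.

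BBX30 (AT4G15248, chromosome 4, 8708841 to 8709482, plus strand) carried the other call, at chr4:8707701-8708980 with a median summit 222 bp upstream. The percentiles were 87.5, 91.7 and 90.3 in ZT4 lists, 77.9, 77.9 and 56.3 in ZT9 lists and 76.2, 72.0 and 68.3 in ZT24 lists. All ZT4 replicates were above all others, and ZT9 and ZT24 overlapped. The fold enrichment averaged 5.02 ± 0.24 in ZT4 lists, 3.46 ± 0.69 in ZT9 lists and 3.64 ± 0.24 in ZT24 lists (SD, n = 3 each). The ChIP pileup was 101, 98 and 84 in ZT4 lists, 67, 79 and 69 in ZT9 lists and 89, 83 and 63 in ZT24 lists, so in pileup ZT4 and ZT24 overlapped.

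The BBX30 site was called for any change with an adjusted p of 0.043, but none of the 3 differences between time points was (0.0527 for ZT9 against ZT4, 0.0605 for ZT24 against ZT4 and 0.959 for ZT24 against ZT9). The call was lost by ranks of the pileup (adjusted p = 0.257) and without any 1 of the 9 replicates, with adjusted p from 0.0534 to 0.125. The same site falls in the window of the neighbour BBX9, and a second site shared with BBX9, in the 3′ UTR of BBX30, was present in 8 lists and missing from that of ZT9 replicate 2. Its percentiles were 24.5, 56.4 and 22.8 in ZT4 lists, 7.2 and 11.0 in ZT9 lists and 49.4, 57.5 and 28.5 in ZT24 lists. With ZT9 replicate 2 left out, so that it could be tested among 13458 sites, it was not called (adjusted p = 0.163).

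The window under the upstream summit of BBX30 (chr4:8708469-8708768, plus strand) is shown because the site was called, with its TCP-like word in capitals.
BBX30 upstream: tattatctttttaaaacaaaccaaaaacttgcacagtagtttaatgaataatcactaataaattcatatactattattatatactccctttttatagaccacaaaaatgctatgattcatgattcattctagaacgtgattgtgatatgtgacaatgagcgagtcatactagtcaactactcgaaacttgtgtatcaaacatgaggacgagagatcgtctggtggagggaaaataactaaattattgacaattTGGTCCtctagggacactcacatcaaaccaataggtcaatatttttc
Its GC content was 32.0%.

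BBX32 (AT3G21150, chromosome 3, 7412445 to 7413727, minus strand), which binds BBX21 and reduces its activity, was the most weakly bound gene of the group. Its site at the start, with a summit 34 bp into the 5′ UTR, had percentiles of 51.3, 63.1 and 54.5 in ZT4 lists, 62.9, 61.7 and 34.6 in ZT9 lists and 61.4, 58.7 and 15.1 in ZT24 lists. The time points overlapped, and the spread at ZT24 rested on replicate 3 (adjusted p = 0.649). A second site, 1126 bp from the start in the 3′ UTR, was present in 7 lists and nearer to the start of AT3G21140 (144 bp), at percentiles from 0.1 to 43.2.

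**Figure D4:**
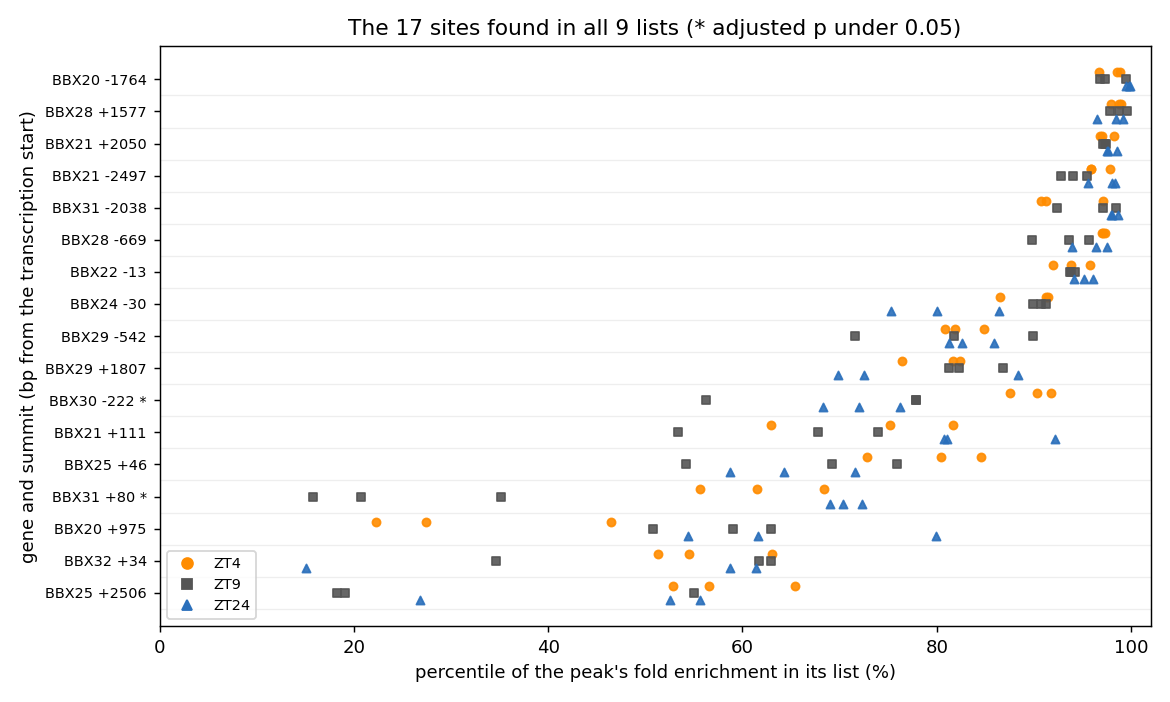
Percentile of the fold enrichment in its list (x axis, percent) for the 17 sites present in all 9 lists (rows, named by gene and by the summit's distance from the start in bp), with 3 replicates per time point. The 2 sites called at an adjusted p under 0.05 are marked with a star. The ZT9 points of BBX31 +80 (15.8 to 35.1) lie left of its other points, and the ZT4 points of BBX30 -222 (87.5 to 91.7) lie right of its other points.

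Over the 17 sites, the mean rank by fold was lowest at ZT4 in 5, at ZT9 in 6 and at ZT24 in 6, and 35.1% of all sites were lowest at ZT9. By ranks of the pileup, 11 of the 17 were lowest at ZT9 and 11 were highest at ZT24, where 34.9% of all sites were lowest at ZT9 and 33.3% highest at ZT24. These counts were not tested, since sites of a gene are not independent and single differences are small. Of the 25 sites, 3 were present in every ZT4 and ZT24 list but missing from at least 1 ZT9 list, at BBX29, BBX30 and BBX31, and none was missing from ZT4 or from ZT24 lists only. Over all 28285 sites, 2.58% were missing from ZT4 lists only, 4.96% from ZT9 lists only and 2.63% from ZT24 lists only. BBX29 -1411 was missing from ZT9 replicate 3, which had the fewest peaks of the 9 lists (20988). BBX30 +552 was missing from ZT9 replicate 2, and BBX31 -672 was found at ZT9 in replicate 3 alone. The part of list size and depth in these absences was not tested.

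The summit windows of 300 bp were searched for short words on both strands. TCP-like words (GGNCCA, with any base but G at N) occurred in 6 of the 17 windows (35.3%), against 38.0% of all 13251 windows. PIF-like words (CACNNG, with a purine and then a pyrimidine at NN) occurred in 6 (35.3%), against 38.6%, and the G-box CACGTG, which is one of them, in 3 (17.6%), against 13.4%. The core ACGT, which the G-box contains, occurred in 12 (70.6%), against 55.0%. The AT-rich words AAATAAAA, AAATAATA, ATATAAAA and ATATAATA occurred in 12 (70.6%), against 56.0%. With 17 windows these shares differ from the background by few sites and were not tested.

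The TCP-like words were unevenly placed among the genes. Counted with overlaps, they occurred 3 times each in the upstream windows of BBX21, BBX28 and BBX29, 2 times in the downstream window of BBX28, and 1 time each upstream of BBX30 and downstream of BBX25. The windows of BBX20, BBX22, BBX24, BBX31 and BBX32 that were present in all lists held none.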

How the data were processed

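Per the methods, the authors mapped reads to TAIR10 with Bowtie, keeping uniquely mapped reads, and called peaks for each replicate with MACS2 against input. Which input served which list is not given in the sources used here. The deposited lists give each peak's fold enrichment (a ratio), −log10 p and −log10 q per peak, and the lowest −log10 q was 1.30 to 1.33; the deposited score column, which MACS2 derives from these values, was not used. The deposited coordinates were used with the TAIR10.1 RefSeq annotation and genome, which has the same nuclear chromosomes; gene starts are those of RefSeq. The members and lists were chosen with earlier results of these data known.

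Peaks that overlapped by at least 1 bp across lists were merged into sites, and a site took its most enriched peak from each list. Fold enrichments were ranked among the 13251 sites present in all 9 lists, turned into normal scores and tested over 3 time points with limma 3.58.1 (moderated F test, R 4.3.3, Benjamini-Hochberg adjustment over all these sites), after a check on simulated ranks. P-values measure the spread between ChIP replicates. With 1 input per time point they do not measure the spread between inputs, and the part of that spread in the fold ranks was not tested. Pileup and background were solved from fold and p under the Poisson model of MACS2, and a whole-number pileup gave the deposited −log10 p within 0.001 for 100.0% of peaks. Python 3.11.15, pandas 2.3.3, numpy 2.4.6, scipy 1.17.1 and matplotlib 3.10.9 were used. Named were all 10 members with every site in their windows, the 2 highest and 2 lowest other B-box genes, and 7 pathway genes. Alternatives were other windows, ranks, merging and peak thresholds, a replicate block, and each replicate left out. Unique mapping removes reads from near-identical copies.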

Additional observations from a re-analysis of the deposited data

How the results depend on the processing

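All 10 genes stayed bound at all 3 time points under every alternative run. Of all protein-coding genes, 16827 were bound at all 3 time points, and 9327 with only peaks of a −log10 q of at least 10. Of all sites 1930 were called, but 238 by ranks of −log10 p, 30 by ranks of the pileup, 1176 by ranks among all peaks of a list (chosen after seeing the data), and 959 to 1257 without 1 replicate. The count of 2 called B-box sites became 1 under those 3 rankings and with peaks of a −log10 q of at least 5, where the start site of BBX31 was no longer in all lists and BBX30 was the site called, and was 1 to 2 without 1 replicate, where the second call, without ZT9 replicate 3, was BBX29 -1411 and not BBX30. BBX31 was called in each of the 15 alternatives in which it was tested and BBX30 in 3 of 16. The labels do not say whether replicates with the same number were handled together. Deviations of samples with the same number correlated between -0.05 and 0.06, so no shared deviation was seen, and the main test used no pairing. With the replicate block 1400 of all sites and 2 B-box sites were called, namely BBX31 (adjusted p = 0.0197) and the intronic site of BBX20 (0.0352), while BBX30 had 0.0668.

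None of the reversed differences was called in either form. By pileup ranks the differences (later minus earlier, rank score) were -0.0836 for BBX21 +111, 0.0571 for BBX28 +1577, 0.161 for BBX29 +1807 and 0.963 for BBX32 +34 (ZT24 minus ZT9), and -0.188 for BBX22 (ZT24 minus ZT4). By −log10 p ranks they were -0.0267 for BBX22 and 0.0678 for BBX32 +34. Without 1 replicate, BBX29 -542 ranged from -0.06 to 0.11, with -0.0032 without ZT4 replicate 1 and -0.0605 without ZT24 replicate 3, and BBX32 +34 from -0.57 to 0.07, with 0.0697 without ZT24 replicate 3. In 100 bp windows, TCP-like words occurred in 3 of the 17 sites (21.4% of all sites), PIF-like words in 3 (17.9%), the G-box in 1 (5.61%), ACGT in 5 (24.3%) and the AT-rich words in 7 (30.9%). The cause of these changes was not tested, except that shorter windows hold fewer words. Counts of fragments limit the precision at weak sites, such as the start of BBX31 at ZT9 with a pileup of 33 to 42. Mapped-read totals are unknown here, and the effect of depth on this call was not tested.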
